A study of Mus musculus with 2 samples.

Results

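The BCL2 family decides at the outer mitochondrial membrane whether a cell lives or dies, and 10 of its genes were followed here in activated regulatory T cells. They are the 10 rows with these symbols among the 55536 genes of the deposited gene table: the guardians Bcl2, Bcl2l1, Mcl1, Bcl2a1b and Bcl2a1d, the effectors Bax and Bak1, and the BH3-only genes Bcl2l11, Bbc3 and Pmaip1. Polyadenylated RNA came from primary activated regulatory T cells of 1 male adult mouse aged 4 months, strain Foxp3CreERT2 x Rosa26YFP, and was sheared to 100 to 300 bases. Foxp3CreERT2 places a tamoxifen-dependent Cre at Foxp3, so that Cre is made only where Foxp3 is active, and Rosa26YFP is a yellow fluorescent reporter. The labels trace the cells to a bone marrow hematopoietic cell. They give no organ of isolation, sorting gate, tamoxifen dose or way of activation. The libraries are technical replicates 1 and 2 of biological replicate 1, called library 1 and library 2 below. No resting, untreated or wild-type group was used here, so levels could be described and the libraries compared with each other, but no effect of activation or genotype could be measured.

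Guardians bind the killer members of the family and hold them inactive. BAX and BAK1, once released, assemble in the mitochondrial membrane and let cytochrome c out, which starts the caspase cascade. BH3-only proteins sense stress and cytokine loss and neutralise the guardians or activate the effectors. In regulatory T cells, interleukin-2 acting through STAT5 is known to maintain Bcl2 and Mcl1, while BIM, the product of Bcl2l11, limits how long the cells survive.

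The estimated reads on genes numbered 15076048 in library 1 and 14635787 in library 2. Foxp3, the defining factor of the labelled cell type, stood at 23.8 and 20.9 TPM (a measure of transcript abundance that is scaled for transcript length and summed to the same total in each library), and the 5 regulatory T cell markers summed to 1530 and 1550 TPM. Markers of other cells were lower: the 5 neutrophil markers summed to 0.36 and 0.19 TPM with S100a9 and Mpo at 0, and the 4 B cell markers to 1.93 and 2.17 TPM. The 4 monocyte and macrophage markers summed to 1.36 and 3.6 TPM with Cd14 at 0, the 3 natural killer cell markers to 4.98 and 9.55 TPM with Ncr1 at 0, Cd8a and Cd8b1 to 11.4 and 15.6 TPM, and the erythroid genes Hba-a2 and Hbb-bs to 13 and 11.6 TPM. In a bulk sample a larger share of cells expressing a gene and more RNA per expressing cell cannot be told apart.

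The member with the highest TPM, Bcl2a1b, belongs to a set of near-identical mouse genes for the guardian A1, so their sequences are shown before their levels. Bcl2a1b lies at chr9:89199209-89207827 on the plus strand of mm10, Bcl2a1d at chr9:88723285-88731914 on the minus strand and Bcl2a1a at chr9:88956900-88962419 on the plus strand. Each has a coding sequence of 516 bases, 172 codons, without the stop. The first 120 coding bases hold 7 of the 12 positions at which any of the 3 copies differ. Capitals mark those positions, and the sequences are GENCODE M21 transcripts read 5′ to 3′.
Bcl2a1a: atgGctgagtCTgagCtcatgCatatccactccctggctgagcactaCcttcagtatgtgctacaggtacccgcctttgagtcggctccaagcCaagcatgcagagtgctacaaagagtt
Bcl2a1b: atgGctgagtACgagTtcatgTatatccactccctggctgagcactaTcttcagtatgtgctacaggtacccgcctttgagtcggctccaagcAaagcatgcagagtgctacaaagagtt
Bcl2a1d: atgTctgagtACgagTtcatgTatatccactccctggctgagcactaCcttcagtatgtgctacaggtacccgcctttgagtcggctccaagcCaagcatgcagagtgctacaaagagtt
The stretch lies at chr9:88957051-88957170 in Bcl2a1a, chr9:89199360-89199479 in Bcl2a1b and chr9:88731600-88731719 in Bcl2a1d. Over the whole coding sequence Bcl2a1b and Bcl2a1d differed at 6 of 516 positions (98.84% identity), and the longest identical run was 217 bases. Bcl2a1a differed from Bcl2a1d at 7 positions and from Bcl2a1b at 11.

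A 50-base read, the length that the deposited effective lengths imply, therefore often cannot name its copy. Of the 768 windows of 50 bases in Bcl2a1b, 79.2% also occurred in a transcript of another gene, and of the 814 in Bcl2a1d, 79.5% did. That leaves 160 windows of Bcl2a1b, 167 of Bcl2a1d and 239 of Bcl2a1a that occur in no other gene. Part of the overlap of Bcl2a1b is with Gm29094, an annotated transcript that starts in the Bcl2a1b exon and shares 353 of its windows. Gm29094 was given 205.2 and 159.9 estimated reads. With Gm29094 set aside, 326 windows of Bcl2a1b occurred in no other A1 copy.

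The promoters of the copies are also alike. The stretches below are the 130 bases just before the GENCODE start of each gene, from the RefSeq promoter table on GRCm38.p6, with matches to GAGGAAGT in capitals.
Bcl2a1a: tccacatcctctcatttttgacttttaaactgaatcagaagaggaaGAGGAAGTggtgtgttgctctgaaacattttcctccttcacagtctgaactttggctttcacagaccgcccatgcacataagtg
Bcl2a1b: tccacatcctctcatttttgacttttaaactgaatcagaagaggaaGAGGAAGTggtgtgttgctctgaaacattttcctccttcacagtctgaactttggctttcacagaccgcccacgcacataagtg
Bcl2a1d: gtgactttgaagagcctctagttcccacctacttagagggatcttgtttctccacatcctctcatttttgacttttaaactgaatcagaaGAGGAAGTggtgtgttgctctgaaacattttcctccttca
They lie at chr9:88956770-88956899 on the plus strand for Bcl2a1a, chr9:89199079-89199208 on the plus strand for Bcl2a1b and chr9:88731915-88732044 on the minus strand for Bcl2a1d. The stretches of Bcl2a1a and Bcl2a1b differed at 1 of 130 positions, T119C, counted from the first printed base with Bcl2a1a first. Bcl2a1d aligned with either over 86 columns, of which 80 were identical and 6 were gapped, so a purine-rich repeat is shorter there. GAGGAAGT, which contains the GGAA core bound by Ets factors, was searched on both strands of the 300-base RefSeq windows. It occurred in the windows of all 4 A1 copies and, among the members with an entry, in 3 of 14 windows (those of Bcl2a1b, Bcl2a1d and Bak1, of which the first pair are near-identical duplicates), where 3.2% of all 32851 promoter windows hold it. GAGGAAGT was the only string searched, and it lies in a stretch that the printed A1 promoters share, so these shares do not measure enrichment. A match is a string of letters and does not show binding.

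The deposited TPM of the A1 copies were far apart. Bcl2a1b stood at 201.5 TPM in library 1 and 203.8 in library 2, the highest level among the members in both. Bcl2a1d stood at 69.1 and 69.7 TPM. Bcl2a1a had 3.37 estimated reads in library 1 and 0 in library 2. Bcl2a1c, a shorter A1 relative at chr9:114330135-114330578, had 6.45 and 11.95 reads. Expression of A1 in these libraries thus sat on Bcl2a1b and Bcl2a1d, while Bcl2a1a, with 239 windows that occur in no other gene, was at or near 0 (3 reads are what a count of 0 allows).

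How A1 was divided between its 2 expressed copies depended on the table. In the estimated reads Bcl2a1b held 73.1% of the reads of the 4 copies in library 1 and 73.0% in library 2. In the deposited whole-number counts it held 83 of 165 counts in library 1, or 50.3% (exact Clopper-Pearson 95% interval 42.4 to 58.2%), and 82 of 157 in library 2, or 52.2% (44.1 to 60.3%). Within each table the libraries gave nearly the same share, while the tables gave different ones. The deposited posterior SD of the estimate was 1.87% of the reads of Bcl2a1b and 4.02% of those of Bcl2a1d in library 1, so the difference between tables was much wider than the error that the model attached to its own split.

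**Figure D1:**
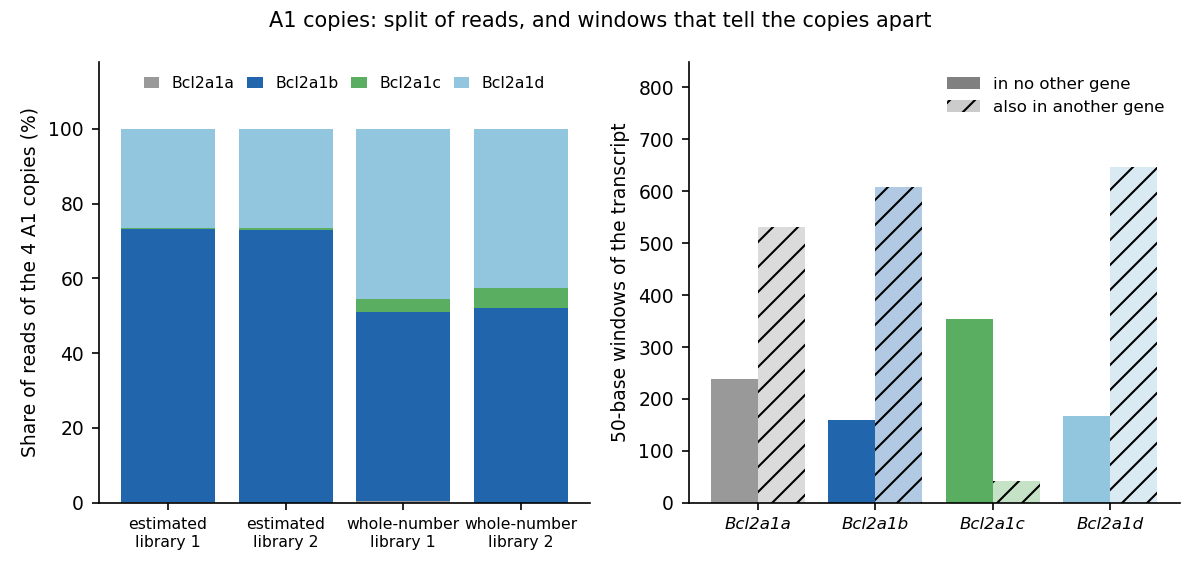
Left, share (%) of all reads of the 4 A1 copies that fell on each copy, in the estimated reads and in the whole-number counts of each library; right, number of 50-base windows of each copy's transcript that occur in no other gene (solid) or also in another gene (hatched). Bcl2a1b takes 73.1% and 73.0% of estimated reads but 50.3% and 52.2% of whole-number counts, and Bcl2a1a is barely visible in any bar although 239 of its windows are its own.

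Of the other guardians, Bcl2 was the highest. Bcl2, the founding guardian, which lies at chr1:106538178-106714274 on the minus strand, stood at 110.4 TPM (95% counting interval 108 to 113) in library 1 and 125.4 TPM (122 to 128) in library 2. Mcl1, a guardian with a very short-lived protein on which regulatory T cells are known to depend, lies at chr3:95658788-95663176 on the plus strand and stood at 58.0 TPM (55.7 to 60.3) and 64.8 TPM (62.4 to 67.4). Bcl2l1, which encodes BCL-xL and lies at chr2:152780668-152831728 on the minus strand, stood at 39.6 TPM (37.2 to 42.1) and 40.1 TPM (37.7 to 42.6). Bcl2 was thus 1.9 and 1.93 times as high as Mcl1 per length, and 2.79 and 3.13 times as high as Bcl2l1. Counting intervals cover counting error only, and the PCR copies of 1 molecule cannot be recognised in these tables.

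The effectors were unequal. Bax, at chr7:45461697-45466898 on the minus strand, stood at 71.4 TPM (66.4 to 76.8) in library 1 and 123.9 TPM (117 to 131) in library 2. Bak1, at chr17:27019810-27029009 on the minus strand, stood at 7.38 TPM (6.3 to 8.61) and 4.19 TPM (3.41 to 5.11). Bax exceeded Bak1 in both libraries, by 9.68 times in library 1 and 29.6 times in library 2, and the size of that gap is the least repeatable quantity among the member ratios computed here, because the libraries moved the effectors in opposite directions.

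The 3 BH3-only members together were the scarcest of the roles. Bcl2l11, at chr2:128126038-128162547 on the plus strand, stood at 11.6 TPM (10.6 to 12.6) and 13.8 TPM (12.8 to 15). Pmaip1, which encodes NOXA, a binder of MCL1, lies at chr18:66458533-66465565 on the plus strand and stood at 9.69 TPM (8.62 to 10.9) and 12.2 TPM (11 to 13.4). Bbc3, which encodes PUMA, a target of p53, lies at chr7:16308393-16318205 on the plus strand and had 24 and 19 reads, or 1.1 TPM (0.705 to 1.64) and 0.92 TPM (0.554 to 1.44). Bcl2l11 exceeded Bbc3 by 10.6 and 15 times.

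**Figure D2:**
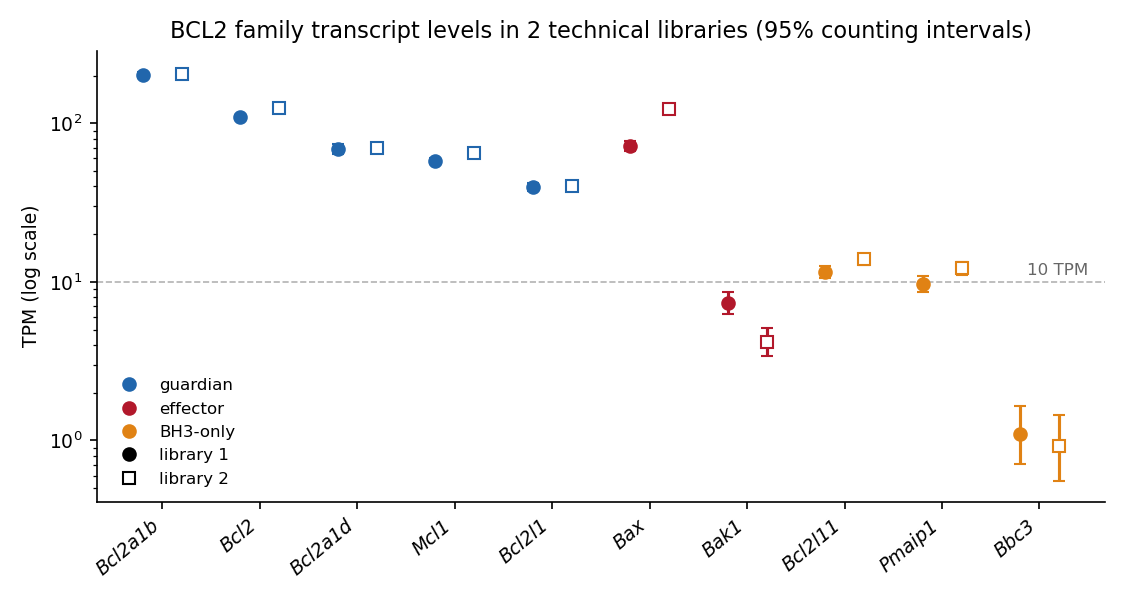
TPM (log axis) of the 10 members, grouped as guardians, effectors and BH3-only genes; filled circles are library 1, open squares library 2, and bars are 95% counting intervals, hidden where shorter than the symbol. The 5 guardians and Bax lie above 39 TPM in both libraries, the BH3-only genes at or under 13.84 TPM, and Bax and Bak1 shift in opposite directions between libraries.

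In the order of mean TPM, Bcl2a1b came first, then Bcl2, Bax, Bcl2a1d, Mcl1, Bcl2l1, Bcl2l11, Pmaip1, Bak1 and Bbc3, and each adjacent pair had the same order in both libraries. Counting intervals separated Bcl2a1b from Bcl2, Mcl1 from Bcl2l1, Bcl2l1 from Bcl2l11, Pmaip1 from Bak1 and Bak1 from Bbc3 in both libraries. The pairs Bcl2 and Bax, Bax and Bcl2a1d, Bcl2a1d and Mcl1, and Bcl2l11 and Pmaip1 were not separated in both. The widest step between neighbours was from Bak1 to Bbc3, a ratio of means of 5.73, followed by that from Bcl2l1 to Bcl2l11, at 3.13. In all, 7 of 10 members reached 10 TPM in both libraries, where 29.5% of 22028 protein-coding genes did, and 9 of 10 reached 1 TPM, where 46.2% did. Ordered by reads, which longer transcripts collect more of, the sequence began Bcl2, Mcl1, Bcl2a1b, Bcl2l1, Bax.

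Summed by role over the 10 members, guardian transcripts exceeded those of the effectors and of the BH3-only genes. The 5 guardians summed to 478.6 TPM in library 1 and 503.9 in library 2, which was 82.5% and 76.5% of the TPM of all members. The effectors summed to 78.8 and 128.1 TPM and the BH3-only genes to 22.4 and 26.9 TPM. The BH3-only sum, and every ratio to it, covers only Bcl2l11, Bbc3 and Pmaip1. It leaves out the BH3-only genes Bid (34.0 and 46.6 TPM) and Bad (32.2 and 40.9 TPM), each of which exceeded that sum in both libraries. The ratio of guardian to effector TPM was 6.07 in library 1 and 3.93 in library 2 (5.0 ± 1.51, SD, n = 2 technical libraries), and that of guardian to BH3-only TPM was 21.4 and 18.7 (20.0 ± 1.87, SD, n = 2). For single pairs, Bcl2 over Bcl2l11 was 9.51 and 9.06 in TPM, Mcl1 over Pmaip1 was 5.98 and 5.34, and Bcl2 over Bax was 1.55 and 1.01. In whole-number counts Bcl2 over Bcl2l11 was 13.9 and 22.6 and Bcl2 over Bax was 1.68 and 1.34. Without the A1 copies the guardian to effector ratio fell to 2.22 and the guardian to BH3-only ratio to 8.92. With summed whole-number counts in place of TPM they were 2.45 and 15.9, and with summed estimated reads they were 11.8 and 13.6. All of these are ratios of transcripts and carry no measurement of protein.

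The whole-number table, made on the older annotation GENCODE M4 per the deposited file listing, gave another order. Its counts, divided by the same effective lengths and scaled to the same sum, put Bax first, at 195 in library 1 and 278 in library 2, ahead of Bcl2 at 59.4 and 65.9. Bcl2a1b came out at 39.9 and 40.6 and Mcl1 at 17.3 and 20.5, well under their TPM, while Bcl2l1 at 46.3 and 46.1 lay close to it. The number of members at or above 10 on this scale in both libraries was 6, against 7 by TPM. The whole-number count was 54.9% of the estimated reads for Bax, 28.2% for Bak1 and 25.7% for Bcl2l1, but 11.8% for Bcl2, 11.5% for Pmaip1, 7.91% for Bcl2l11, 6.82% for Mcl1 and 4.4% for Bcl2a1b. Over 4720 protein-coding genes with 1000 or more summed reads the median was 37.5%, with quartiles of 21.4 and 54.2%. Every guardian but Bcl2l1 lay under the lower quartile. So did the BH3-only members Bcl2l11, Pmaip1 and Bbc3 (10.5%, from 43 summed reads). Bax lay near the upper quartile, at 59.5% in library 1 and 50.4% in library 2. Across the 4720 genes of the same libraries, the share rose with the coding share of the transcript (Spearman's rho 0.605). This rho is a description, since genes are not independent. Coding bases make up 66.4% of the Bax transcript with most reads but 9.85% of that of Bcl2 and 11.7% of that of Bcl2l11. The members did not all follow this order: Mcl1 at 29.1% coding and Bcl2l1 at 28.9% had very different whole-number shares, and Bak1, at 12.1% coding, had a higher share than Mcl1. Bcl2a1b, at 63.2% coding, and Bcl2a1d, at 59.8%, had whole-number shares of 4.4% and 10.4%. The cause of the differences between the tables was not tested.

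**Figure D3:**
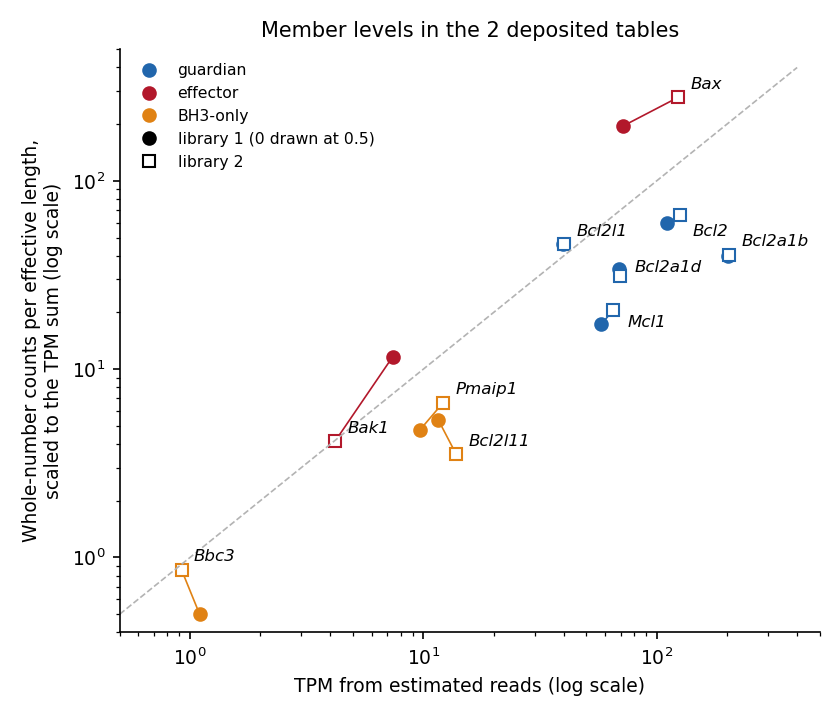
TPM of each member (horizontal, log axis) against its whole-number counts per effective length, scaled to the same sum as TPM (vertical, log axis); circles are library 1, squares library 2, lines join the libraries, and the dashed line marks equality. Bax lies above the line at 195 and 278, Bcl2a1b far below it at 39.9 and 40.6, and the count of 0 for Bbc3 in library 1 is drawn at the edge.

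At the level of transcripts, the form of each guardian could be read for some members and not for others. Mcl1 was assigned to Mcl1-201, which encodes 331 codons, in full. Of the Bcl2l1 reads, 82.7% in library 1 and 87.9% in library 2 fell on Bcl2l1-201 and Bcl2l1-202, which share the 233-codon coding length of BCL-xL, and 11.4% and 9.24% on a pair of transcripts of 209 codons. Bcl2l1-202 has no 50-base window of its own, so its split from Bcl2l1-201 rests on the model alone.

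Bcl2 was divided between a spliced transcript and an unspliced one. Bcl2-201, of 7191 bases, joins the first coding exon to a distant second one and encodes 236 codons. Bcl2-202, of 2841 bases, runs on into the intron and encodes 199. Both coding sequences are the same for 577 bases and then part. The lines below show 40 shared bases in lower case and, in capitals, what follows in each: the first 60 own bases of Bcl2-201, which begin the part that holds the membrane anchor in its last codons, and all 20 own bases of Bcl2-202.
Bcl2-201: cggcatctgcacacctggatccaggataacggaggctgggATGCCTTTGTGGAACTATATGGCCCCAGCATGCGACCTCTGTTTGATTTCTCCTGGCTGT
Bcl2-202: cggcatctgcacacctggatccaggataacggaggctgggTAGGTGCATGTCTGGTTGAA
The Bcl2-202 stretch lies at chr1:106712284-106712343 on the minus strand, and that of Bcl2-201 spans 2 exons between chr1:106543338 and chr1:106712343. Bcl2-201 held 64.2% of the Bcl2 reads in library 1 and 66.5% in library 2, yet only 41.25% and 43.66% of its TPM, because it is the longer. Which of them leads therefore changes with the unit, and it does so in both libraries. The transcripts are well separated by sequence, with 5833 windows of Bcl2-201 and 1965 of Bcl2-202 found in no other transcript. An antisense gene, D630008O14Rik, shares 462 windows with Bcl2-201 and was given 219.5 and 186.7 reads. The sources used here do not say whether reads were counted by strand, so reads of Bcl2 and of this gene may be mixed.

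For the BH3-only genes, Bcl2l11-205, whose 196 codons are the coding length of BIM-EL, took 86.1% of the Bcl2l11 reads in library 1 and 83.5% in library 2. Transcripts of 110 codons, the length of the short form BIM-S, took 3.11% and 6.52% of reads but, being shorter, 15.2% and 16.8% of the TPM, of which Bcl2l11-205 held 63.1% and 64.8%. Bcl2l11-202, of 91 codons, took more reads than these, 4.83% and 8.38%, and 7.83% and 14.4% of the TPM. It has 1350 windows found in no other transcript. Bcl2l11-203, of 140 codons, the length of BIM-L, took no reads in either library. Bcl2l11-203 and Bcl2l11-204, a transcript of 110 codons, have no window of their own, so their shares are model estimates. All 24 and 19 reads of Bbc3 fell on Bbc3-201, and 95.5% and 99.1% of those of Pmaip1 on Pmaip1-201.

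The effectors were the least settled at this level. Bax-201, the 192-codon form, held 79.0% of the Bax reads in library 1 and 72.2% in library 2. Bax-205, of 171 codons, went from 27.76 reads (posterior SD 30.5) to 161.6 (posterior SD 55.0), and Bax-201 itself from 581.1 to 870.2 reads and Bax-203 from 113.8 to 167.3, so all 3 were higher in library 2. Bax-205 has 47 windows of its own, 6.25% of its length, and its posterior SD in library 1 exceeded its reads.

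Most Bak1 reads were assigned to transcripts annotated for nonsense-mediated decay, the pathway that removes messages with an early stop. Bak1-204 held 67.3% in library 1 and 68.0% in library 2. It differs from the coding Bak1-202 inside the coding part by lacking 5 bases at the start of 1 exon, and Bak1-201 adds an exon of 20 bases at chr17:27021663-27021682, so neither keeps the reading frame. The lines below, all coding and on the minus strand, show these places. Capitals mark the bases that Bak1-204 lacks and the exon that Bak1-201 adds.
Bak1-202: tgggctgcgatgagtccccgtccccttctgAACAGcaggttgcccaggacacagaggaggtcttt
Bak1-204: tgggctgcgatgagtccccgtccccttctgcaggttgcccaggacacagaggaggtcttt
Bak1-201: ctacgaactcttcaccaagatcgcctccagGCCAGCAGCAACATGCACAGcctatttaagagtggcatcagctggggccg
Bak1-202, the only annotated form of 209 codons, was given 0 reads in library 1 and 31.21 in library 2, and Bak1-201 was given 44.54 and 0. Protein-coding transcripts together held 5.57% of the Bak1 reads in library 1 and 32.0% in library 2. With 163.9 and 98.8 Bak1 reads in all, and 48 windows (2.51%) that are particular to Bak1-204, the assignment rests on few reads: the posterior SD of Bak1-204 was 35.96 for 110.2 reads in library 1 and 19.4 for 67.17 in library 2. The gene-level count of Bak1 does not depend on this split, but its TPM does through the effective length, 1789.8 bases in library 1 and 2015.53 in library 2. Ggnbp1, on the opposite strand, overlaps Bak1 exons and shares from 10.8% to 34.6% of the windows of the Bak1 transcripts. It was given 14.12 and 7.2 reads, and reads of Bak1 and of this gene may be mixed.

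**Figure D4:**
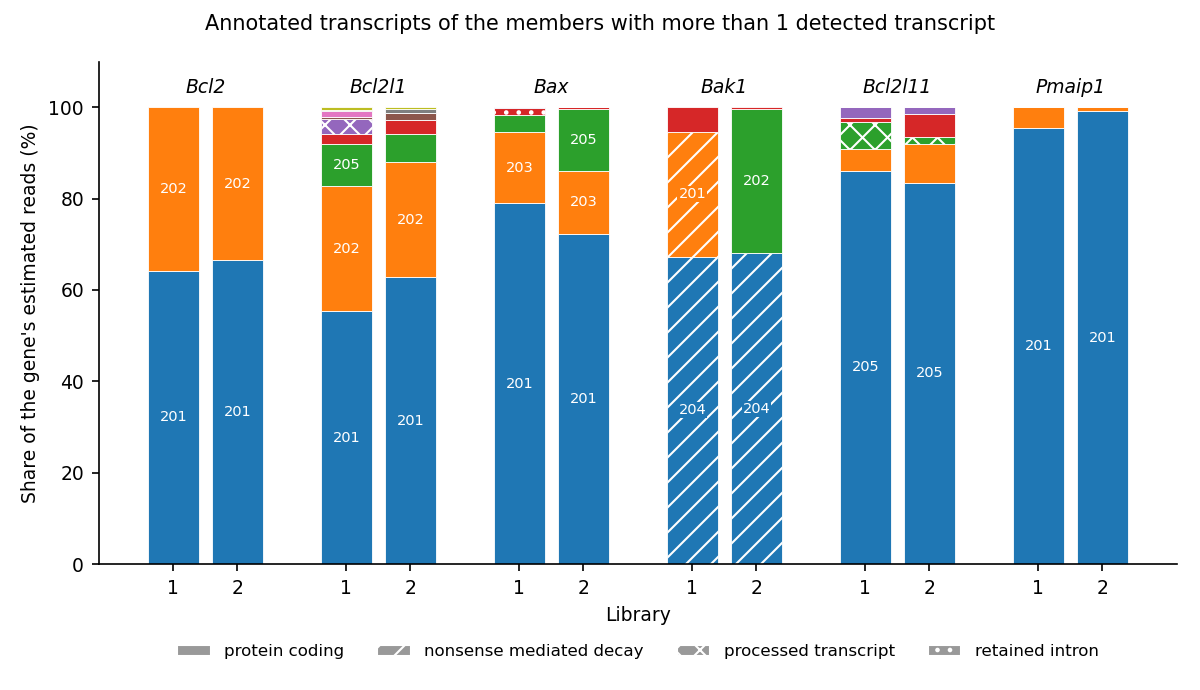
Share (%) of each gene's estimated reads on its annotated transcripts, in library 1 and library 2, for the 6 members with more than 1 transcript detected; numbers inside the bars are the transcript suffixes and hatching marks the transcript type. Bak1-204 (nonsense-mediated decay) holds 67.3% and 68.0% in the libraries, while the remainder of Bak1 changes from Bak1-201 to Bak1-202.

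Between the technical libraries, 6 of the 10 members differed by the exact two-sided binomial test on estimated reads with Benjamini-Hochberg adjustment over all 17271 genes tested, and 24.3% of those genes did. The threshold was an adjusted p under 0.05, and the test compares libraries of the same sample, not conditions. Bcl2, Mcl1, Bax, Bcl2l11 and Pmaip1 were higher in library 2, a direction in which 12.7% of genes were called, and Bak1 was higher in library 1, a direction in which 11.6% were. These shares cover genes with as few as 10 summed reads. Among the 5224 genes with 1000 or more, 45.7% differed at least as much as Mcl1, 28.2% as Bcl2 and 9.19% as Bcl2l11.

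Bax had 736 reads in library 1 and 1205 in library 2, a log2 difference of 0.75 (1.69-fold; exact binomial test, adjusted p = 2.41e-27). Among the 5224 genes with 1000 or more summed reads, where the median absolute log2 difference was 0.11, only 8 genes including Bax itself differed as much. The whole-number counts of Bax went the same way, from 438 to 607 (exact binomial test, adjusted p = 2.72e-05). Bax was also the only member called by edgeR's exact test with a dispersion of 0.01 added (adjusted p = 0.0272), under which 2.85% of genes were called. With TMM scaling, DESeq2 size factors or no filter on low counts the same 6 members were called, beside 24.4%, 24.3% and 12.4% of the genes tested in turn.

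Bak1 went from 164 to 99 rounded reads, a log2 difference of -0.68 (exact binomial test, adjusted p = 0.00181). Its whole-number counts fell from 56 to 22 (exact binomial test, adjusted p = 0.00449). Bcl2 differed by 0.18 (adjusted p = 1.29e-10, exact binomial test), Mcl1 by 0.12 (0.0181), Bcl2l11 by 0.30 (0.00436) and Pmaip1 by 0.37 (0.00634). None of these 4 was called in the whole-number counts, where 9.95% of genes were, and there Bcl2l11 pointed the other way, with 53 counts in library 1 and 36 in library 2. Both A1 copies and Bcl2l1 differed by no more than 0.03 on the log2 scale and Bbc3 by -0.29, with adjusted p between 0.798 and 0.924 in the exact binomial test. The summed markers of monocytes, natural killer cells and CD8 T cells given above were also higher in library 2, as were the 4 T cell markers (4590 and 4820 TPM). Within these sums the genes did not all move together. Cd8b1 went from 9.94 to 14.81 TPM but Cd8a from 1.43 to 0.79, and Lyz2 from 0.61 to 2.83 but Itgam from 0.71 to 0.45. Prf1 rose from 3.88 to 7.56 TPM. The part of any of these genes in the library differences was not tested.

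**Figure D5:**
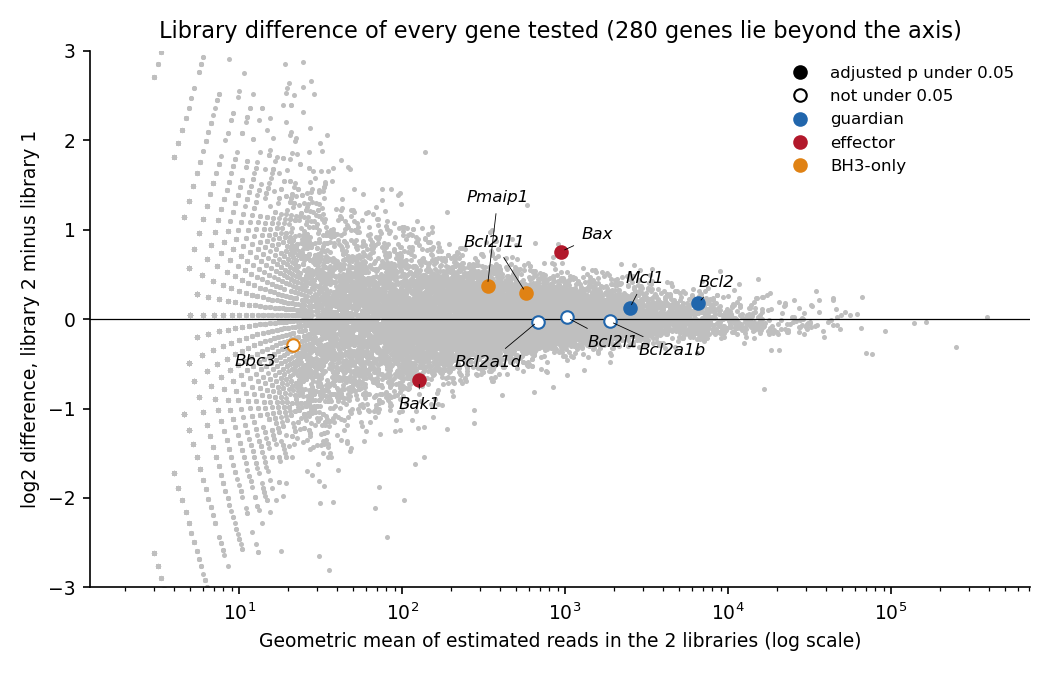
Log2 difference between libraries (library 2 minus library 1) against the geometric mean of estimated reads (log axis) for 17271 genes (grey), with the members coloured by role; filled symbols passed an adjusted p under 0.05. Bax stands at 0.75, at the upper edge of the genes of its depth, Bak1 at -0.68, and the A1 copies and Bcl2l1 near 0, and 280 genes lie beyond the axis limits of 3.

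The remaining BCL2 relatives were more uneven than the members. Of 16 other family genes, 10 reached 1 TPM in both libraries and 4 reached 10 TPM. The highest was Bnip3l, a mitophagy receptor with a BH3-like stretch, at 344.3 and 336.4 TPM. Bid, the BH3-only protein that caspase-8 cleaves, stood at 34.0 and 46.6 TPM, and Bad, a BH3-only protein held by 14-3-3 proteins when phosphorylated, at 32.2 and 40.9 TPM. Bid and Bad thus each exceeded Bcl2l11, Pmaip1 and Bbc3 per length in both libraries. The BH3-only genes Bmf (0.14 and 0.15 TPM) and Hrk (0.06 and 0.05 TPM) were barely detected, and Bcl2l10 had no read in either library, which allows up to 3 reads in each. The guardian Bcl2l2 stood at 1.85 and 1.4 TPM, under all 5 guardians followed here, and the effector relative Bok at 0 and 0.28 TPM. Of the 12 genes of this list that were tested, 3 (Bid, Bad and Bcl2l12) were higher in library 2 and none was higher in library 1, beside 12.7% and 11.6% of all genes tested.

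Downstream of the mitochondria, all 14 apoptosome and caspase genes reached 1 TPM in both libraries and 11 reached 10 TPM. Birc3 (83.6 and 94.3 TPM) and Birc2 (73.1 and 79.0 TPM), which encode ubiquitin ligases of the inhibitor of apoptosis family, were the highest, followed by Diablo, their antagonist released from mitochondria, at 64.4 and 66.5 TPM. The lowest by TPM was Endog, a mitochondrial nuclease, at 2.53 and 1.71 TPM from 31.77 and 20.29 estimated reads. Its whole-number counts of 120 and 101 were higher than these estimates, so its place depends on the counting, and the cause was not tested. They also exceeded the whole-number counts of Cycs, the gene for cytochrome c, at 0 and 2 beside 620.4 and 611.7 estimated reads. Of the 14, 3 were higher in library 2 and none in library 1, beside the same 12.7% and 11.6%.

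In the death receptor arm, which reaches the family through Bid, all 9 genes reached 1 TPM and 7 reached 10 TPM. Casp8 stood at 137.5 and 135.7 TPM, its inhibitor Cflar at 130.1 and 125.5 TPM, and Fas at 83.0 and 93.6 TPM. Tnfrsf10b, a receptor for TRAIL, was lowest, at 3.47 and 2.39 TPM, and was the only one of the 9 called between libraries, higher in library 1, where 24.3% of all genes were called in either direction.

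Of 10 genes that partner with the members at mitochondria or control the turnover of MCL1 and BIM, all reached 1 TPM and 8 reached 10 TPM. Ywhaz, a 14-3-3 protein, was highest, at 648.7 and 653.4 TPM, then Dynll1, the dynein light chain that binds BIM, at 346.9 and 307.8 TPM, and Vdac2, which binds BAK1, at 187.1 and 193.6 TPM. Dynll2, which tethers BMF, was lowest, at 3.29 and 3.41 TPM. Among the regulators of MCL1 protein, the ligase gene Huwe1 stood at 42.7 and 45.3 TPM, the deubiquitinase gene Usp9x at 23.4 and 26.5 TPM and March5 at 9.41 and 9.01 TPM. By the test on reads, 5 of these 10 (Vdac1, Vdac3, Huwe1, Dynll1 and Ywhaz) were higher in library 1 and none in library 2. Of all genes tested, 11.6% were higher in library 1 and 12.7% in library 2. For Ywhaz (24864 and 23210 reads) and Huwe1 (3091 and 2608 reads) the TPM above went the other way.

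All 16 upstream regulators reached 1 TPM and 13 reached 10 TPM. The receptor chains Il2rg (1066 and 1258 TPM), Il2rb (370.0 and 482.3 TPM) and Il7r (238.9 and 242.7 TPM) led, with Il2ra next at 236.1 and 242.2 TPM. Trp53, whose protein can induce Bbc3, Pmaip1 and Bax, stood at 174.9 and 197.2 TPM, and its target Cdkn1a, the lowest of the list by mean TPM, at 5.67 and 8.79 TPM. Foxo3, which can induce Bcl2l11 and Bbc3, stood at 7.08 and 7.54 TPM, and Rel, an NF-kappaB subunit known to drive A1, at 14.7 and 12.3 TPM. By the test on reads, 6 of the 16 were higher in library 2 (Il2rb, Il2rg, Stat5a, Stat5b, Rela and Trp53). Another 3 were higher in library 1 (Il7r, Rel and Myb), beside the 24.3% of all genes called in either direction. Il7r had 8506 and 7630 reads, so its reads and its TPM went opposite ways.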

How the data were processed

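RNA-seq of 2 technical libraries of 1 sample was analysed. Per the file headers, the authors' gene and transcript tables hold expected counts (estimated reads), TPM, FPKM (not used) and isoform percent on GENCODE M21 of mm10, and the posterior SD of the expected count. The deposited second gene table holds whole-number counts with no header, made on GENCODE M4 per the deposited file listing. The sources used here name no aligner, counter or strand setting. The 2 whole-number totals were 3478224 and 3475360, for 22457 genes, of which 22195 matched GENCODE M21. Rows that name no gene held 0.142% and 0.186% of expected counts and were left out.

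Expected counts were rounded. With 1 group of technical replicates, edgeR's quasi-likelihood test has no residual degrees of freedom. For each gene with 10 or more summed reads, the split of reads was compared with the library share by a two-sided exact binomial test, with Benjamini-Hochberg adjustment. Its p-values allow for counting error only. The simulated Poisson counts on which the test was checked held no other spread, so they do not show how it behaves with more. Log2 differences had 0.5 added to each count. Alternatives, run under R 4.3.3, were size factors from DESeq2 1.42.0 and, from edgeR 4.0.16, TMM and the exact test with the dispersion set to 0.01. Counting intervals are exact Poisson 95% intervals. Windows of 50 bases were searched in 141767 GENCODE M21 transcripts on both strands. Other work used Python 3.11.15, pandas 2.3.3 and scipy 1.17.1, and Biopython 1.88 aligned the promoters. All members were described, and of each pathway list the 3 highest and the lowest gene were named, with other list genes allowed. The members and lists were chosen with earlier results of these data known.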

Additional observations from a re-analysis of the deposited data

How the results depend on the processing

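TMM scaling, DESeq2 size factors and no filter on low counts left the count of members differing between libraries at 6 and the same 6 genes called. The whole-number table called 2 members (Bax and Bak1) and edgeR at a dispersion of 0.01 called 1 (Bax), and over all genes 1092 and 492 were called in place of 4198. In the whole-number table the log2 difference of Bcl2l11 reversed to -0.55 (adjusted p = 0.316, exact binomial test) and that of Bcl2l1 to -0.004. The guardian to effector ratio became 11.8 with summed estimated reads, 2.45 with summed whole-number counts and 2.22 without the A1 copies. The guardian to BH3-only ratio became 13.6, 15.9 and 8.92 under the same changes. Bid and Bad enter none of these ratios. The share of A1 reads on Bcl2a1b moved from 73.1% to 51.3% with whole-number counts. As a share of estimated reads in place of TPM, Bcl2-202 moved from 57.5% to 34.6%, Bcl2l1-201 from 53.1% to 59.0% and Bcl2l11-205 from 64.0% to 84.8%. Leaving out either library moved no level, ratio or share by more than 1 SD of the pair, which 2 values ensure by construction. The causes of the differences between tables were not tested.

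No paired analysis was possible because the libraries form 1 group with no second condition. With 43 reads in both libraries together, Bbc3 was not called at a log2 difference of -0.29 (adjusted p = 0.798, exact binomial test). Bcl2l11, with more reads, was called at 0.30 (adjusted p = 0.00436, exact binomial test).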
